A study of Homo sapiens with 6 samples.

Results

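Selenoproteins carry selenocysteine, an amino acid that is encoded by UGA, which in other mRNAs is a stop codon. A stem-loop in the 3′UTR of the mRNA, the SECIS element, its binding protein SECISBP2 and the elongation factor EEFSEC bring the selenocysteinyl tRNA to the ribosome, and reading of the UGA competes with termination by the release factors. When ribosomes terminate at a UGA upstream of the last exon junction, the mRNA can become a substrate of nonsense-mediated decay. Most known human selenoproteins are redox enzymes or proteins of the endoplasmic reticulum.

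Translation was examined for 10 selenoprotein mRNAs, chosen by their older gene symbols: GPX1, GPX4, TXNRD1, TXNRD2, SELK, SELT, SEP15, SEPHS2, SEPW1 and SEPN1. Of these, 8 had a translational efficiency among 8121 genes, and 5 of the 8 (GPX4, TXNRD1, TXNRD2, SEPHS2 and SEPN1) also had a list of ribosome occupancy per codon among 9570 transcripts. SELK and SEPW1 had no row under these symbols in either table used here. The data came from ribosome profiling, which sequences the mRNA fragments that ribosomes protect from nuclease (RPFs), in HEK293 cells, a line derived from human embryonic kidney, with 3 RPF libraries and 3 total RNA libraries. The labels give control siRNA for every library, while the methods of this experiment name no siRNA, and cells were treated with and lysed in cycloheximide at 100 µg/ml, which arrests elongating ribosomes. No other condition was measured. Part of each lysate was kept for total RNA and the rest gave the RPFs, and nothing in the labels says whether the 3 replicates are separate cultures, so p-values measure the spread between these libraries. The tables hold ratios to mRNA abundance, so the identity of the cell line was not checked against marker genes here.

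The UGA codons were located in GENCODE transcripts on GRCh37, the build of hg19. All 10 mRNAs had a single in-frame UGA before the stop codon, each annotated there as selenocysteine, and for the 5 mRNAs with occupancy lists a single transcript had the listed CDS length. The coding sequence around the UGA is shown for these 5 mRNAs, because the occupancy results turn on it, and for SEP15, because its UGA has another base after it. Each line gives 12 nt on either side of the codon, 5′ to 3′ with T for U, and the capitals mark the UGA.
GPX4: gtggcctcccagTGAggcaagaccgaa
SEPHS2: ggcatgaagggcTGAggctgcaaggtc
SEPN1: gaccagtcctgcTGAggttcagggcgg
TXNRD1: caggctggctgcTGAggttaagcccca
TXNRD2: gtgacaggctgcTGAgggtaagcgcca
SEP15: gaagtttgtggaTGAaaattgggaagg

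In 9 of the 10 mRNAs the base after the UGA was G, and in SEP15 it was A. All of the UGA codons lie in coding exons. GPX4 lies on chromosome 19 from 1103981 to 1106790 on the plus strand, with its UGA at 1105402 to 1105404, codon 73 of a CDS of 197 residues. SEPHS2 lies on chromosome 16 from 30454952 to 30457195 on the minus strand, with the UGA at 30456869 to 30456871, codon 60 of 448. SEPN1 lies on chromosome 1 from 26126684 to 26144712 on the plus strand, and its UGA at 26139280 to 26139282 is codon 428 of 556. In the thioredoxin reductases the UGA is the last codon but 1 of the protein. It is codon 648 of 649 in the listed transcript of TXNRD1 (chromosome 12, 104609557 to 104744085, UGA at 104742191 to 104742193) and codon 523 of 524 in that of TXNRD2 (chromosome 22, 19863040 to 19929343, UGA at 19864634 to 19864636). In these 2 sequences the TAA stop codon follows the UGA after a single codon. The positions of the UGA in the other members were codon 49 of 203 in GPX1, codon 49 of 195 in SELT, codon 96 of 165 in SEP15, codon 92 of 94 in SELK and codon 13 of 87 in SEPW1.

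Translational efficiency, the deposited ratio of RPFs to total RNA, was low for the thioredoxin reductase TXNRD1 and for SEPN1 and close to the median of all genes for SEPHS2 and SELT. The median over all genes was 0.385, with quartiles of 0.198 and 0.825. Of the 8 selenoprotein mRNAs, 5 were called below the median of all values (limma, FDR 0.05) and 1 was called above it. Over all genes 44.6% were called lower and 44.7% higher. Their median was 0.246, and the range was from 0.113 to 0.486. With so large a share of all genes called, nothing particular to selenoprotein mRNAs is read from this count.

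**Figure D1:**
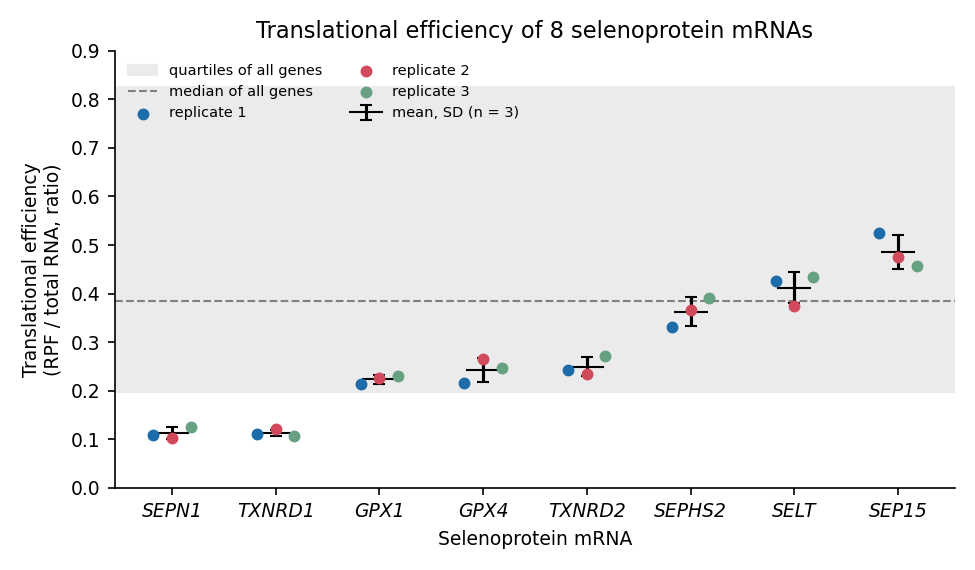
Translational efficiency (RPF over total RNA, a linear ratio) of the 8 selenoprotein mRNAs in the table, ordered by mean, where points are the 3 replicates, bars give the mean and SD, the dashed line is the median of all 8121 genes (0.385) and the grey band its quartiles (0.198 to 0.825). SEPN1 and TXNRD1 sit below the band, and the other 6 mRNAs lie within it.

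Among the glutathione peroxidases, GPX1, which reduces hydrogen peroxide, had a translational efficiency of 0.214, 0.225 and 0.231 in replicates 1, 2 and 3 (0.224 ± 0.00873, SD, n = 3). GPX4, which reduces lipid hydroperoxides in membranes, had 0.216, 0.264 and 0.246 (0.242 ± 0.0242, SD, n = 3). Both lay below the median in every replicate, with a difference of −0.75 for GPX1 on the log2(value + 0.01) scale of the test (SE 0.051, limma adjusted p = 7.19e-05) and −0.64 for GPX4 (SE 0.070, limma adjusted p = 0.000485). GPX4 was higher than GPX1 in each of the 3 replicates by a mean factor of 1.08, but the ranges of the pair overlapped (two-sided exact permutation test, p = 0.3, adjusted over 2 pairs 0.3). The test did not pair the values by replicate, so it does not measure the difference within a replicate. Transcripts annotated to other genes hold 85.8% of the 30-nt words of the GPX1 CDS. Whether these genes overlap GPX1 in the genome was not checked, and the effect of the shared words on its value was not tested.

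The thioredoxin reductases, which keep thioredoxin reduced in the cytosol (TXNRD1) and the mitochondrion (TXNRD2), differed from each other. TXNRD1 had 0.111, 0.120 and 0.107 (0.113 ± 0.00687, SD, n = 3), and TXNRD2 had 0.244, 0.235 and 0.271 (0.250 ± 0.0191, SD, n = 3). The 3 values of TXNRD2 all lay above the 3 of TXNRD1, by a factor of 2.22. The same unpaired two-sided exact permutation test gave p = 0.1, the smallest that 3 against 3 can give (adjusted over 2 pairs 0.2). TXNRD1 lay at the 9.56th percentile of all genes, 3.21 times below the median on the scale of the test (log2 difference −1.68, SE 0.056, limma adjusted p = 5.85e-06). TXNRD2 was at the 33.3rd percentile, 1.52 times below (log2 difference −0.60, SE 0.061, limma adjusted p = 0.000362).

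SEPHS2 makes selenophosphate, the selenium donor of selenocysteine synthesis, and is itself a selenoprotein. It had 0.332, 0.365 and 0.390 (0.363 ± 0.0295, SD, n = 3), a log2 difference from the median of −0.08 (SE 0.064, limma adjusted p = 0.275). The remaining 3 are proteins of the endoplasmic reticulum. SELT had 0.426, 0.375 and 0.434 (0.412 ± 0.0318, SD, n = 3), with replicates on both sides of the median and a log2 difference of 0.10 (SE 0.063, limma adjusted p = 0.193), but 51.2% of the 30-nt words of its CDS are shared with other genes. SEP15 had 0.525, 0.476 and 0.456 (0.486 ± 0.0353, SD, n = 3) and was the only 1 of the 8 called above the median, by 0.33 on the log2 scale (SE 0.060, limma adjusted p = 0.00392). SEPN1, a glycoprotein of the membrane whose loss causes a congenital muscle disease, had 0.109, 0.103 and 0.126 (0.113 ± 0.0118, SD, n = 3), a log2 difference of −1.69 (SE 0.069, limma adjusted p = 1.12e-05). Part of its CDS (19.5% of the 30-nt words) is also found in other genes. In the order of the 8 mRNAs, the replicates of SEPN1 and TXNRD1 overlapped, as did those of GPX1 with GPX4, of GPX4 with TXNRD2 and of SEPHS2 with SELT. The steps from TXNRD1 to GPX1, from TXNRD2 to SEPHS2 and from SELT to SEP15 were larger than the spread of the replicates.

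The other genes of selenoprotein biology spanned a wider range. Over all 8121 genes 44.6% were called lower and 44.7% higher, so nothing is read from the counts of calls in these lists. Of 15 other selenoprotein genes, 6 had a value, 3 called higher and 3 lower, from 0.0805 ± 0.00825 (SD, n = 3) for SELO, a mitochondrial protein, to 0.998 ± 0.168 for MSRB1, a methionine sulfoxide reductase. Of 12 genes listed for the selenocysteine machinery, 11 had a value, 5 called higher, 5 lower and 1 in neither direction. The highest was NCL, the abundant nucleolar protein nucleolin, at 7.71 ± 0.751 (SD, n = 3), and the lowest was SCLY, which releases selenium from selenocysteine, at 0.0746 ± 0.0172. SECISBP2, the protein that binds the SECIS element, had 0.0899 ± 0.00272 (SD, n = 3), a log2 difference of −1.98 (SE 0.049, limma adjusted p = 2.72e-06). SEPHS1, the relative of SEPHS2 without selenocysteine, had 0.381 ± 0.00999 (SD, n = 3), a log2 difference of −0.01 (SE 0.049, limma adjusted p = 0.870). Of 8 relatives and partners that use cysteine, 7 had a value, 4 called higher and 3 lower, from 0.204 ± 0.0196 for MSRB3 to 8.69 ± 0.176 for TXN, the thioredoxin that TXNRD1 reduces.

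Occupancy per codon was then read before and after the UGA. The deposited values are in-frame RPFs normalized for library size, divided by mRNA abundance and with the 3 replicates combined, so a value has no replicate error. In the 5 mRNAs each value could be written in a single way as whole numbers of 3 different steps (relative tolerance 1e-12), and a step was taken as the worth of 1 read in a library. This gave back the in-frame CDS reads, 6708 for GPX4, 12198 for TXNRD1, 2557 for TXNRD2, 1223 for SEPHS2 and 745 for SEPN1. Ratios are also given for each step alone, without assigning the steps to replicate numbers. Over 5423 well covered transcripts the mean at the start codon was 2.33 times the transcript mean, 0.878 times at the last sense codon and 0.007 times at the stop codon. A value was therefore read as that of ribosomes with this codon in the P site, so that ribosomes waiting to decode the UGA are counted at the codon before it.

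Mean CDS occupancy was low in GPX4 (0.0126 per codon, 9.02nd percentile of 9570 transcripts) and SEPHS2 (0.0151, 12.1st percentile), and nearer the middle in TXNRD1 (0.0295, 31.3rd), SEPN1 (0.0297, 31.5th) and TXNRD2 (0.0476, 52.8th), against a median of 0.0450. Translational efficiency put these mRNAs in another order, at percentiles of 47.6 (SEPHS2), 33.3 (TXNRD2), 32.2 (GPX4), 9.56 (TXNRD1) and 9.55 (SEPN1) among 8121 genes. The cause of this difference between the measures was not tested. Few codons held much of the occupancy. In GPX4 the 8 highest of 198 codons reached 50% of the sum, and the highest, codon 52 with 1004 reads, held 15.4%. In SEPN1 it took 18 codons, and codon 408 alone held 8.33%. In SEPHS2, TXNRD2 and TXNRD1 it took 28, 37 and 40 codons.

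**Figure D2:**
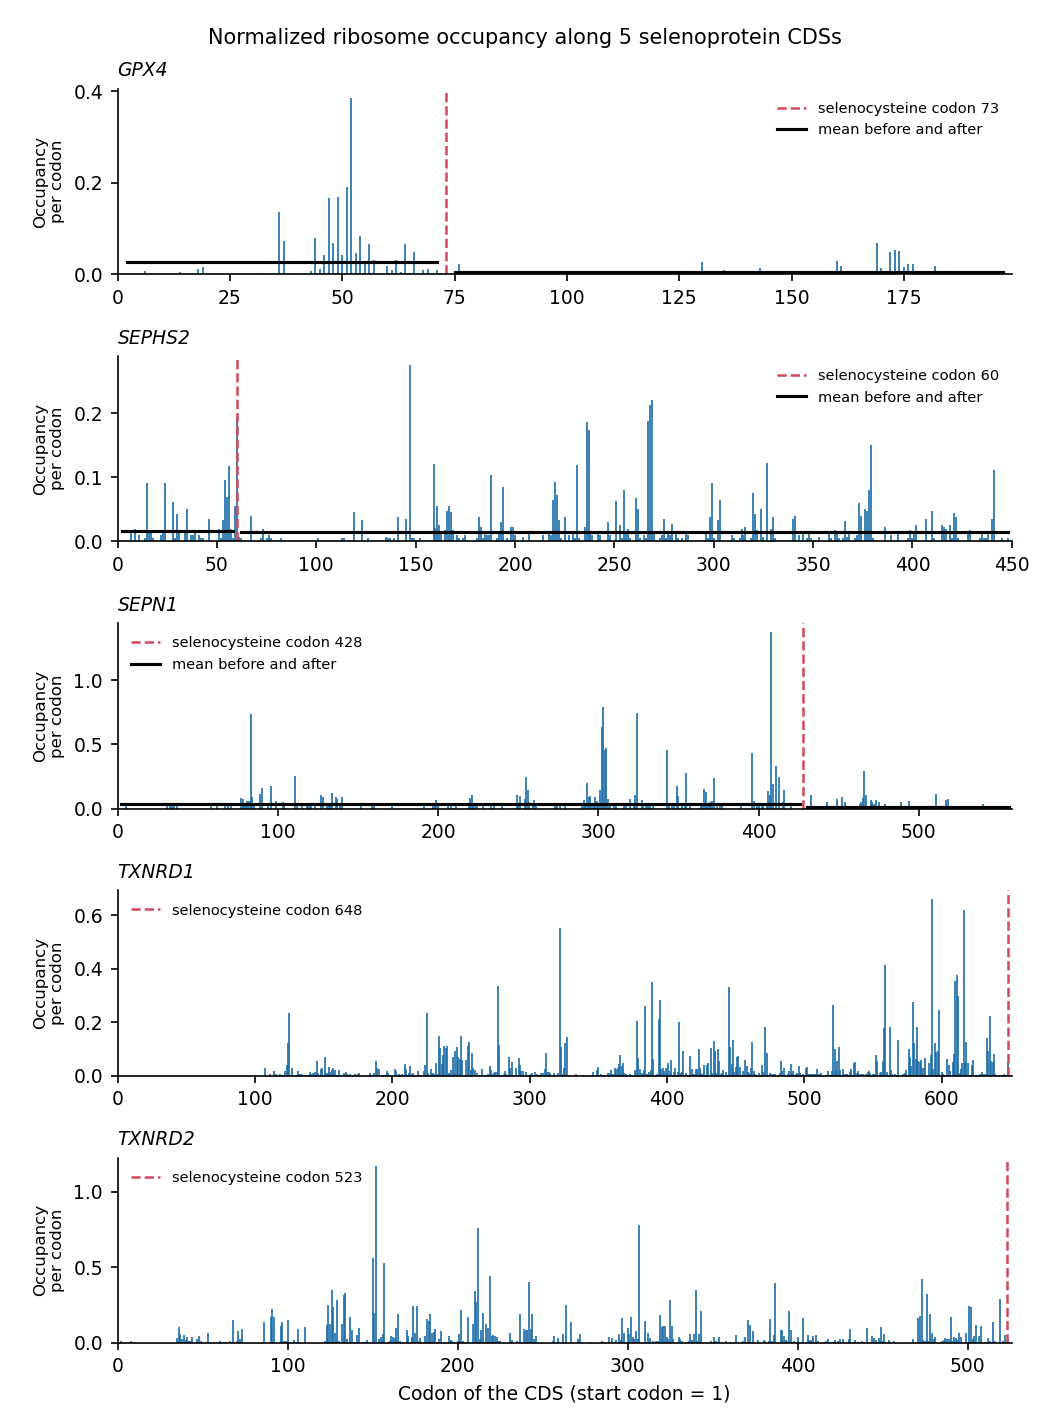
Normalized in-frame ribosome occupancy (authors' value, RPF per codon over mRNA abundance, replicates combined) against codon number in 5 selenoprotein CDSs, with the selenocysteine codon as a dashed line and, where both sides hold at least 10 codons, the mean before and after as black lines. The mean was 0.0271 before and 0.00486 after codon 73 of GPX4, 0.0345 and 0.0148 for codon 428 of SEPN1, and 0.0165 and 0.0144 for codon 60 of SEPHS2.

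GPX4 had far fewer footprints after its UGA than before it. The mean occupancy was 0.0271 over the 70 codons before (5113 reads) and 0.00486 over the 123 codons after (1592 reads), a ratio of 0.179. The 3 steps gave 0.151, 0.184 and 0.205. Of the reads in these windows 23.7% lay after the UGA (exact 95% interval 22.7 to 24.8, for counting error only), where 63.7% of the codons lie. When all 5498 well covered transcripts of sufficient length were split at the same codon 73, the median ratio was 1.19, 7.57% of them had a ratio under 0.5, and GPX4 was at the 0.482nd percentile. Among all transcripts long enough, whatever their coverage, it was at the 0.977th. These percentiles count codon 73 from the listed start codon of each transcript, and CDS length was not matched. In GPX4 codons 1 to 27 had only 127 reads, and no percentile was computed with codons counted from the annotated in-frame start at codon 28. The CDS of GPX4 shared no 30-nt word with other genes. The values did not change in a single step at the UGA. Most reads lay in codons 33 to 52 (mean 0.0690, 3714 reads), with 0.0235 and 1258 reads in codons 53 to 72 just before the UGA, 0.00297 and 162 reads in codons 74 to 93 just after it, and again 0.0123 and 654 reads in codons 154 to 173. Over the 10 codons that end at the UGA and the 10 that follow, the means were 0.0148 and 0.00516, a ratio of 0.348 at the 21.1st percentile of 5443 well covered transcripts. The medians of the long windows, which single codons move less, were 0.00236 before and 0.000747 after. No footprint lay on the UGA itself, where a count of 0 allows up to 3 reads, and 3 lay on the codon before it.

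SEPN1 showed the same direction with fewer reads. Its mean was 0.0345 over 425 codons before the UGA (658 reads) and 0.0148 over 127 codons after it (87 reads), a ratio of 0.428, with 0.370, 0.372 and 0.540 in the 3 steps. After the UGA lay 11.7% of the reads (exact 95% interval 9.46 to 14.2) and 23.0% of the codons. The same split at codon 428 in 2455 well covered transcripts had a median of 0.930, 8.51% of them under 0.5, and SEPN1 was at the 5.66th percentile. SEPN1 does not reach the coverage of that set, and among all transcripts long enough for the split, whatever their coverage, it was at the 8.91st. Its 20 codons before the UGA had 102 reads, 60 of them on codon 408, against 7 reads in the 20 codons after it. In the 10 codons up to the UGA there was 1 read and in the 10 that follow 5, too few to compare. Sequence shared with other genes made up 18.1% of the 30-nt words before the UGA and 26.3% after it, and its part in the ratio was not tested.

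In SEPHS2 the whole windows differed little. The mean was 0.0165 over the 57 codons before the UGA (172 reads) and 0.0144 over the 387 after it (1007 reads), a ratio of 0.871, with 0.784, 0.896 and 0.953 in the 3 steps. The counting interval of the ratio, 0.733 to 1.02, includes 1, but it covers counting error only and not the uneven spread of reads over codons. Split at codon 60, 5547 well covered transcripts had a median of 1.25 with 7.64% under 0.5, and SEPHS2 was at the 28.8th percentile, or the 32.0th among all transcripts long enough. Close to the UGA the picture was different. The 10 codons that end at it had a mean of 0.0614 and 110 reads (25, 41 and 44 in the 3 steps), 4.06 times the CDS mean, and the following 10 codons had 0.00526 and 9 reads (2, 3 and 4). That ratio of 0.0856 was at the 4.16th percentile of the same windows in 5483 well covered transcripts. SEPHS2 does not reach the coverage of that set, and no percentile among all transcripts was computed for these windows. Of the 110 reads, 32 lay on the UGA codon itself. Few footprints were seen for some distance after the UGA, with 18, 1, 11 and 11 reads in the successive windows of 20 codons from codon 61 to 140, and then 95 reads in codons 141 to 160. Low windows also lay far from the UGA, with 19 reads in codons 341 to 360 and 14 in codons 381 to 400. The other windows from codon 141 to 440 had 36 to 158 reads. After the UGA 3.25% of the 30-nt words are shared with other genes.

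**Figure D3:**
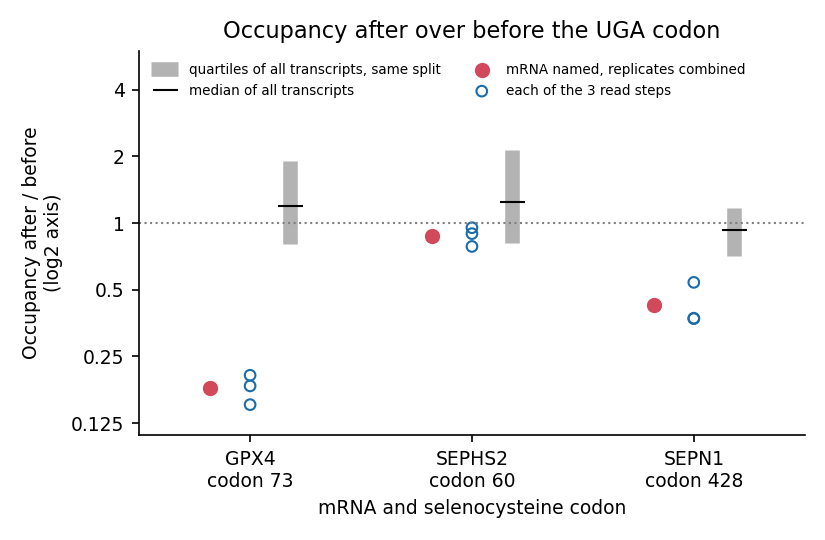
Ratio of mean occupancy after the selenocysteine codon to that before it, on a log2 axis, for GPX4, SEPHS2 and SEPN1, where filled points are the authors' combined values (0.179, 0.871 and 0.428), open circles each of the 3 read steps, and grey bars the quartiles of all well covered transcripts split at the same codon number, with medians of 1.19, 1.25 and 0.930. The points of GPX4 and SEPN1 lie below the quartiles, and those of SEPHS2 lie near 1.

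At the UGA codon itself the mRNAs differed widely. In SEPHS2 it held 32 reads, 7, 12 and 13 in the 3 steps, and an occupancy of 0.194, which was 12.8 times the CDS mean and the fourth highest of 447 codons (rank 4). Codon 60 of 5584 well covered transcripts, a set whose coverage SEPHS2 does not reach, had a median of 0.298 times the mean, and the value of SEPHS2 was at their 99.6th percentile. The codon before it, with the UGA in the A site, had 11 reads and 3.62 times the mean, at the 92.9th percentile, and the codon after it had 1 read. Another group of footprints lay upstream, with 17, 13 and 22 reads at 6, 5 and 4 codons before the UGA. GPX4 and SEPN1 had 0 reads on the UGA and 0 on the codon after it, and SEPN1 also had 0 on the codon before. The coverage of SEPN1 was thin here, with 33.4% of its CDS codons above 0 against 68.7% in GPX4.

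**Figure D4:**
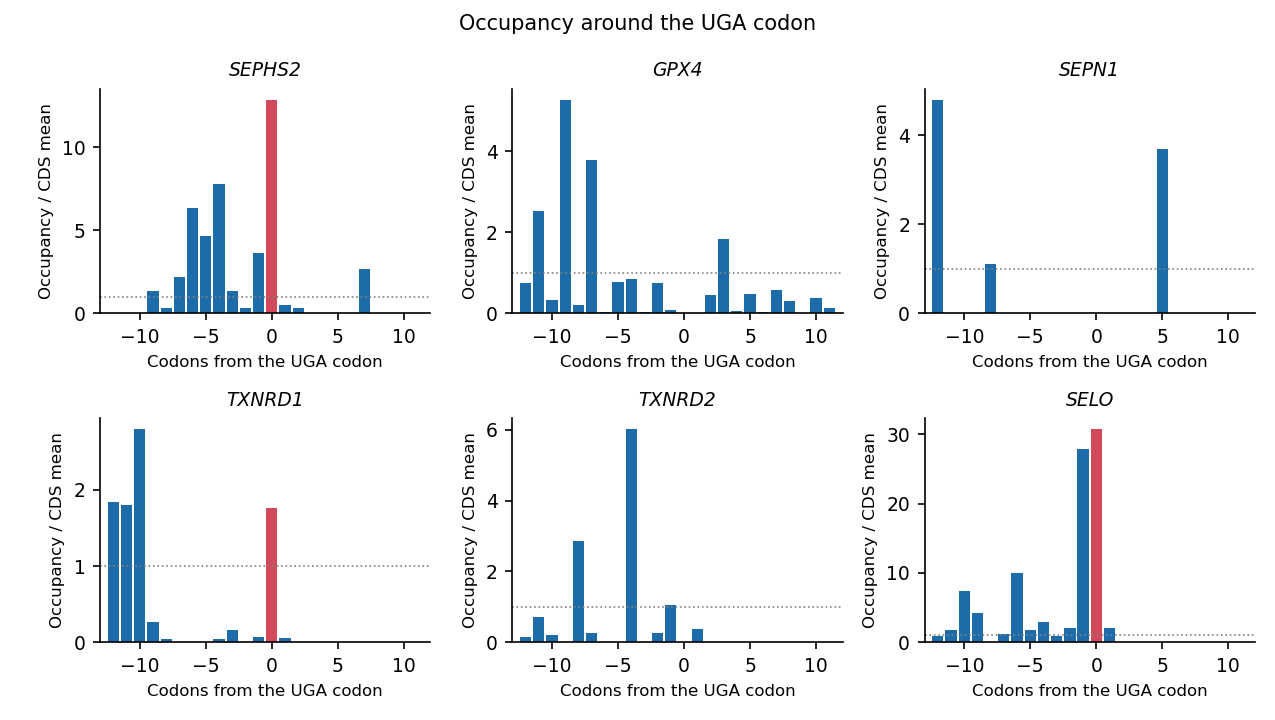
Occupancy of each codon relative to the mean of its CDS, from 12 codons before to 11 after the UGA codon (red, position 0), for 5 selenoprotein mRNAs and SELO, with the vertical scale set for each panel and a dotted line at the CDS mean. SEPHS2 and SELO have high values at the UGA codon (12.9 and 30.8 times the mean of all CDS codons). TXNRD1 has 1.77, and GPX4, SEPN1 and TXNRD2 have 0. The text leaves the start and stop codons out of the mean, which gives 12.8, 30.7 and 1.76. VIMP, at 0.423 times the mean of all CDS codons, is not drawn.

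In the thioredoxin reductases only a single sense codon follows the UGA, so no window after it could be read. TXNRD1 had 32 reads on the UGA (9, 10 and 13 in the 3 steps), an occupancy of 0.0520 that was 1.76 times the CDS mean, rank 104 of 648 codons. It was at the 80.4th percentile of the same place in well covered transcripts. The CDS mean of TXNRD1 includes codons 1 to 150, which had a mean of 0.00488 against 0.0369 from codon 151 on. The ratios, ranks and percentiles of TXNRD1 rest on this whole listed CDS. The codon before the UGA and the codon after it had 1 read each, and the stop codon had 0. TXNRD2 had 0 reads on the UGA, 4 on the codon before it and 2 on the codon after it, and a nearby value of 0.287 with 30 reads lay 4 codons before the UGA. At 0.376 times the CDS mean its last sense codon was at the 62.0th percentile of last sense codons, which had a median of 0.179, and that of TXNRD1, at 0.0502 times, was at the 38.7th. The 2 selenoprotein mRNAs outside the 10 that had an occupancy list also carry the UGA near the stop codon. SELO had 25 reads on the UGA and 23 on the codon before it, 30.7 and 27.8 times the CDS mean, rank 2 and rank 3 of 668 codons. SELO was thinly covered, with 568 in-frame CDS reads, 28.2% of its CDS codons above 0 and a CDS mean at the 5.16th percentile. Its ratios to the mean rest on this low mean. VIMP, a protein of endoplasmic reticulum quality control, had 11 reads on the UGA, 0.419 times the mean, and 17 on the last sense codon. No common value at the UGA was seen across these 4 mRNAs, which ranged from 0 to 30.7 times the mean.

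The listed transcripts of GPX4 and TXNRD1 start upstream of starts that other annotated transcripts of these genes use in the same frame. In GPX4 codon 28 is the start of the form without the mitochondrial presequence. Codons 1 to 27 had 127 reads (mean 0.00161) and the 170 sense codons from codon 28 on had 6581 (mean 0.0144), with 0 reads on codon 28 itself. In TXNRD1 the first value above 0 was at codon 107. Codons 1 to 150 had 464 reads on 30 codons (mean 0.00488), while the 499 sense codons from codon 151 on had 11734 (mean 0.0369). Codon 151, where an AUG begins the shorter annotated proteins, had 45 reads, 1.91 times the mean downstream. In both mRNAs most reads therefore lay downstream of these starts. Further annotated in-frame starts lie at codons 41 and 129 of GPX4, with 2 and 10 reads on the codon, and at codons 189 and 438 of TXNRD1, with 20 and 35 reads. Codon 129 of GPX4 lies after its UGA and upstream of the 654 reads in codons 154 to 173, and its part in the reads after the UGA was not tested. TXNRD2 has an annotated in-frame start at codon 97, with 183 reads upstream of it (mean 0.0186) and 2374 from it on (mean 0.0542).

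Upstream of the CDS, SEPHS2 was the only 1 of the 5 mRNAs with in-frame footprints. Its 5′UTR had 273 reads and a mean of 0.0187 per codon, 1.24 times its CDS mean, at the 98.0th percentile of 9566 transcripts with a median ratio of 0.0286. These reads lay on 10 of 79 codons, and the highest, 18 codons before the start codon, had 94 reads. The ratio rested on few codons. It was 0.0983 over the last 17 codons of the 5′UTR and 0.835 without the highest codon of the 5′UTR and of the CDS. In GPX4, TXNRD1, TXNRD2 and SEPN1 the in-frame 5′UTR had 0 reads over 36, 4, 59 and 15 codons, where a count of 0 allows up to 3 reads. The length of the listed 5′UTR differed from that of the matched transcript in all 5 mRNAs, shorter in TXNRD1 and longer in the other 4, so the genome position of these codons is not given.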

How the data were processed

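The authors trimmed RPF reads with Cutadapt, collapsed PCR duplicates (cd-hit-dup), filtered out rRNA and tRNA reads and aligned the remainder to the hg19 transcriptome with bowtie. Total RNA reads were counted with HTSeq. The submitters' processing notes name cutadapt 1.16, Bowtie 1.1.2, TopHat2 2.1.1 and HTSeq 0.9.1, while the methods name Hisat2 for total RNA. The translational efficiency deposited for each replicate is a ratio, and the sources used here do not state how it was computed. The occupancy lists deposited by the authors hold other values, in-frame RPFs per codon scaled by library size and mRNA abundance, with replicates combined. Library totals are not in these tables. Lists broken over lines (31) were rejoined.

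Translational efficiency was compared with the median of the table in limma 3.58.1 (R 4.3.3), after adding 0.01 and taking log2. P-values were adjusted over 8121 genes (Benjamini-Hochberg, FDR 0.05), and low values were kept. The method was tested on simulated data, in which 200 of 8121 genes were moved by 1 on the log2 scale. It called 85.5% of the moved genes and 7 of the others, with 0 of the wrong sign. All other genes were placed at the median there, whereas 44.6% of the real genes were called lower and 44.7% higher. The simulation therefore does not measure the error of the calls in the real data. Replicates correlated at 0.987 to 0.990 over genes, and the pairing of RPF with total RNA is inside the ratio. Windows before and after the UGA needed 10 codons and left out the start and stop codons, the UGA and 1 codon on either side. Well covered transcripts had at least 50% of CDS codons above 0, which SEPHS2 (49.2%), SEPN1 (33.4%) and SELO (28.2%) did not reach. Intervals and limits on reads cover counting error only. Sequences came from GENCODE 44 on GRCh37, matched by symbol and CDS length. Python 3.11.15, numpy 2.4.6, pandas 2.3.3, scipy 1.17.1 and matplotlib 3.10.9 were used.

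The members, lists and tests were chosen with earlier results of these data known. All members were named, and the other lists by counts with their highest and lowest gene. SECISBP2, SEPHS1 and the UGA values of SELO and VIMP were added after their values were seen. No genes of like pattern were sought, since the series has a single condition.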

Additional observations from a re-analysis of the deposited data

Results flagged for a closer look

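In-frame footprints in the 3′UTR were not part of the comparisons, and they lay above the 3 reads that a count of 0 allows in 2 of the 5 mRNAs. SEPHS2 had 12 reads on 10 of 256 codons of its 3′UTR, with a mean per codon that was 1.76% of its CDS mean. SEPN1 had 7 reads on 7 of 847 codons, 0.542% of its CDS mean. GPX4 had 1 read, and TXNRD1 and TXNRD2 had 0. No control sample gives the background of such reads. Groups of 3 replicates are too small for the check of single outlying samples that was used here, and no contrast existed between groups.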

How the results depend on the processing

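Of 106 alternatives, 88 held. A value held within its counting interval, on the same side of the threshold or within 1.5 times its count, and a percentile when it moved by under 5 points. All 48 for translational efficiency and all 12 for the counts of calls held. The occupancy results held less often, in 15 of 25 for the ratio after over before the UGA and 7 of 13 for the UGA over the CDS mean. For the 5′UTR ratio it was 6 of 8, and these 6 were lists without reads, which stay at 0. Translational efficiency kept its direction and call for all 8 mRNAs under a pseudocount of 0.1, without genes of a mean under 0.05, with a replicate block, in which values were centred within their replicate (5 lower and 1 higher), and with each replicate left out (5 to 5 lower, 1 to 1 higher). The ratio after over before the UGA in GPX4 was 0.167 without 5 codons on either side, 0.161 without the first 10 and last 5 codons, 0.198 without the highest codon of each window, 0.115 from codon 28 on, 0.151 and 0.205 in the lowest and highest step, and 0.348 in the windows of 10 codons. Each of these GPX4 values lay outside the counting interval of its ratio (0.1674 to 0.1875), the first of them just below it. In SEPHS2 the ratio after over before the UGA was 1.06 without 5 codons on either side, so that it passed 1, and 0.0856 in the windows of 10 codons. In SEPN1 the windows of 10 codons gave 3.36, from 6 reads. Against all transcripts long enough, the percentiles of the 3 ratios were 0.977 (GPX4), 32.0 (SEPHS2) and 8.91 (SEPN1). These 3 percentiles are counted among the 15 of 25 alternatives that held. The value at the UGA over the CDS mean, averaged with the codons on either side, was 5.64 in SEPHS2 and 0.629 in TXNRD1. Against the median of the CDS that of TXNRD1 was 8.35. That median includes the sparsely covered codons 1 to 150 of TXNRD1. The codon before the UGA gave 3.62 in SEPHS2, 0.0763 in TXNRD1 and 1.04 in TXNRD2. The 5′UTR over CDS ratio of SEPHS2 was 0.0983 in the last 17 codons and 0.835 without the highest codons. Their cause was not tested. The windows of 10 codons, the start at codon 28, the single steps and the codon before the UGA were chosen after seeing the data. The value over the median could not be given for SEPHS2 and SEPN1, whose CDS median was 0, and the last 17 codons could not be read in the short 5′UTRs of TXNRD1 and SEPN1. Depth limits SEPN1 most, with 745 reads.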
